A study of Sus scrofa with 16 samples.

Results

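Filamentous pig conceptuses were compared with large spherical ones, the forms at the end and near the start of elongation. The members were chosen by the stage in the sample titles: 4 filamentous samples, over 100 mm long, and 4 large spherical samples, 6 to 11 mm across, 8 of the 16 samples in the series. Both groups are whole pig conceptuses (Sus scrofa), the embryo together with its membranes, and the labels name no breed, treatment, genotype or day of pregnancy. The other 8 samples are 4 small spherical (1 to 5 mm) and 4 tubular (13 to 45 mm) conceptuses. They entered the fit to estimate the spread and are given as levels beside some of the results and in the figures.

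A pig conceptus hatches as a sphere, lengthens through a tubular form and then becomes a filament in the uterus before it attaches. The outer epithelium, the trophectoderm, makes most of its mass and secretes oestrogen, which signals pregnancy to the mother, and also interferons and interleukins. Beneath it lies the endoderm of the yolk sac, which secretes carrier proteins, and extraembryonic mesoderm spreads between these layers during elongation. STAR and the CYP enzymes carry out oestrogen synthesis, annexins and vimentin belong to membrane and cytoskeleton, and collagen IV forms the basement membrane under the epithelium.

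RNA was amplified, radiolabelled and hybridised to a membrane of cDNA products, and each value is 1 linear intensity per probe and array. Median intensity per array lay between 62.8 and 71.4 over the 16 arrays, and the number of arrays limits the precision. Spearman correlations across probes were 0.879 to 0.934 among the large spherical arrays, 0.881 to 0.95 among the filamentous ones and 0.859 to 0.959 between the groups, so these ranges overlapped. Filamentous replicates 1, 2 and 4 each correlated more highly with a large spherical array than with any other filamentous array. Likewise, each large spherical array correlated more highly with a filamentous array than with any other large spherical array. Large spherical replicate 1 correlated at 0.930, 0.939 and 0.933 with replicate 1 of the small spherical, tubular and filamentous stages. Its correlation was 0.929 with filamentous replicate 4 and at most 0.901 within its own group. The large spherical and filamentous arrays numbered 1 deviated together from their stage means, with a correlation of 0.41 across probes, against 0.056 to 0.11 for numbers 2 to 4. On the 12 arrays numbered 2 to 4, printed differences that moved by over 1.5 times are given for the 12 leading genes per direction. For other genes they are given in part. The labels do not say whether the 4 replicates are different litters or sows. The p-values below reflect the scatter among these arrays alone, which may be technical. In whole conceptuses, fewer cells of a type and less RNA per cell cannot be told apart.

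No gene passed the test between filamentous and large spherical conceptuses once all probes were counted. By limma, 0 of 1014 probes (0%) had an adjusted p below 0.05, and the smallest adjusted p was 0.36. At an unadjusted p below 0.05 there were 61 probes (6.02%), 33 higher in filamentous conceptuses (3.25%) and 28 lower (2.76%), where 50.7 are the count that chance gives. All genes below are therefore described by their values and ranked by p, and none of them passed the test.

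The middle probe of the table had a 95% interval of ± 0.56 on the log2 scale, ± 0.50 among the brighter 75% of probes and ± 0.80 among the dimmest 25% (mean intensity under 35.1). Small differences were therefore not measurable here. A difference of more than 1 on the log2 scale was seen at 16 probes in the higher direction (1.58%) and 12 in the lower (1.18%), and 23 of these 28 were among the dimmest. The 4 filamentous arrays did not overlap the 4 large spherical ones at 39 probes (3.85%): 29 were higher (2.86%) and 10 lower (0.986%). With 4 arrays against 4, an exact two-sided permutation test of a single gene cannot go below p = 0.0286.

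**Figure D1:**
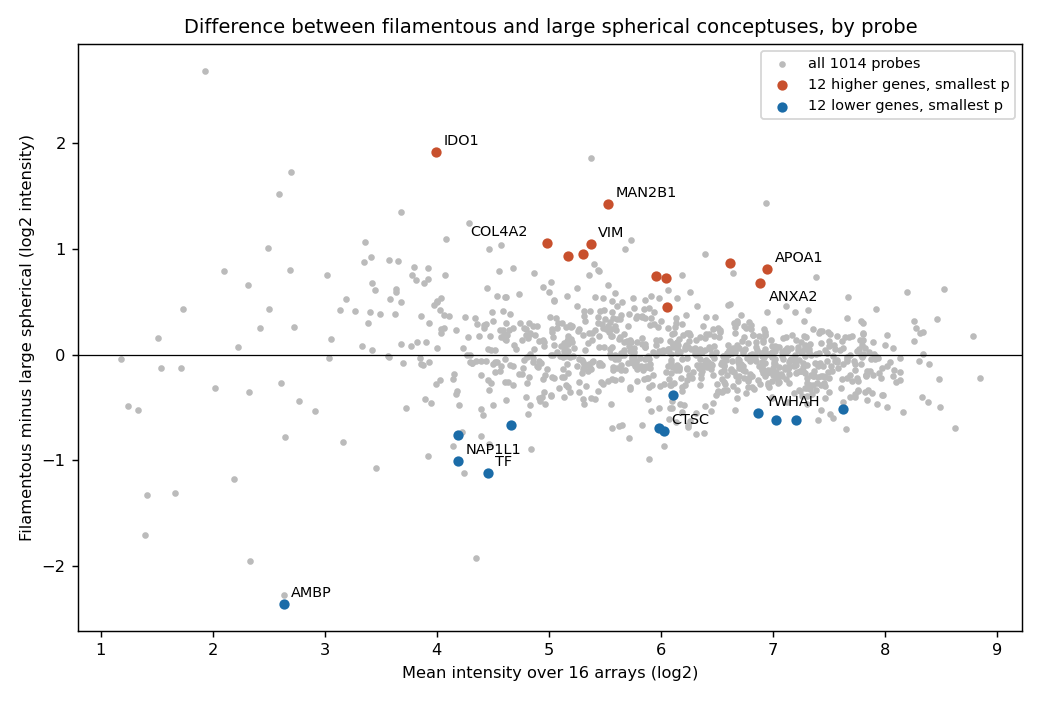
Each point is 1 of 1014 probes, placed by its mean intensity over 16 arrays (log2) and by its filamentous minus large spherical difference (log2 intensity). Orange and blue points are the 12 higher and 12 lower genes with the smallest p; differences beyond 1 lie mostly among dim probes at the left, and no probe passed at an adjusted p below 0.05.

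Among genes higher in filamentous conceptuses, those with the smallest p were MAN2B1, VIM, ANXA2, DLD, MRPS10, APOA1, COL4A2, ANXA1, TGFB1, IDO1, GPX6 and ENO1. The filamentous arrays lay wholly above the large spherical ones for 8 of these 12, against 2.86% of all probes, but the genes were picked for small p and this count supports nothing.

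MAN2B1, a lysosomal alpha-mannosidase that trims sugars from glycoproteins, led the list. It read 33.4, 24.7, 23 and 26.2 on the large spherical arrays 1 to 4 and 115, 52.1, 64.2 and 66.7 on the filamentous ones. The filamentous arrays did not overlap the large spherical ones, and replicate 1 stood highest. The difference was 2.68-fold (95% interval 1.69 to 4.24, log2 1.42 ± 0.31 SE, adjusted p = 0.36, limma), and 1.30 on the log2 scale without the arrays numbered 1. Tubular arrays averaged 41 ± 10.5 (SD, n = 4) and small spherical ones 42.4 ± 17.6, so the large spherical level was the lowest of the 4 stages.

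VIM encodes vimentin, the intermediate filament of mesenchymal cells. Its intensities were 38.9, 21.4, 28.4 and 27.1 in large spherical conceptuses and 86, 40.6, 46.6 and 71.7 in filamentous ones. All 4 filamentous values exceeded the highest large spherical value, with filamentous replicate 2 only just above it. The difference was 2.07-fold (1.36 to 3.13, log2 1.05 ± 0.28, adjusted p = 0.61).

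COL4A2 encodes a chain of collagen IV, the network protein of basement membranes. It read 24.3, 21.4, 16.4 and 12.8 in large spherical and 33, 40.6, 51.6 and 28.8 in filamentous conceptuses, without overlap. The log2 difference was 1.05 ± 0.33 (2.07-fold, 1.27 to 3.37, adjusted p = 0.61) and 1.25 on the 12 arrays numbered 2 to 4. Small spherical conceptuses read 35.5 ± 17.9, close to the filamentous 38.5 ± 9.98.

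ANXA2 and ANXA1 encode annexins, which bind membrane phospholipids in the presence of calcium. ANXA2 read 116, 78, 106 and 111 in large spherical conceptuses and 201, 116, 161 and 184 in filamentous ones, a 1.60-fold difference (1.18 to 2.15, log2 0.68 ± 0.20, adjusted p = 0.61). For ANXA2, filamentous replicate 2, at 115.66, lay barely above large spherical replicate 1, at 115.63. The ANXA2 mean was higher at each later stage, at 83.6 ± 14.5, 103 ± 16.8, 122 ± 17.4 and 165 ± 36.9. Large spherical and filamentous arrays each overlapped the tubular ones. ANXA1 read 38.9, 21.4, 24.4 and 26.2 against 91.2, 40.6, 39 and 49 (log2 0.93 ± 0.30, adjusted p = 0.611). For ANXA1, filamentous replicates 2 and 3 lay just above the highest large spherical array, and without filamentous replicate 1 the difference was 0.66.

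APOA1, the main protein of high-density lipoprotein and a product of yolk sac endoderm, was measured by 2 probes. The brighter probe read 93.7, 105, 106 and 83.7 in large spherical and 238, 142, 150 and 160 in filamentous conceptuses (log2 0.80 ± 0.25, adjusted p = 0.61). The other probe was very dim, at 1.19 ± 0.489 and 7.27 ± 2.35, and differed in the same direction (log2 2.68 ± 0.77, adjusted p = 0.61). On both probes the groups did not overlap. The brighter probe averaged 120 ± 43.3 in small spherical and 105 ± 16.7 in tubular conceptuses.

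TGFB1, a secreted transforming growth factor, read 56.2, 19.7, 20.4 and 30 in large spherical conceptuses and 67.2, 52.1, 41.5 and 64.2 in filamentous ones (log2 0.95 ± 0.32, adjusted p = 0.677). Large spherical replicate 1 overlapped the filamentous range, and without the arrays numbered 1 the difference was 1.18. IDO1, which degrades tryptophan, was dim and scattered, at 17, 1.35, 23 and 3.16 against 27.9, 21.8, 13.8 and 40.2. Its log2 difference of 1.91 ± 0.72 (adjusted p = 0.722) became 1.17 without large spherical replicate 2 and 0.86 with an offset before the logarithm. The size of the IDO1 difference is therefore poorly fixed.

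The remaining 4 of the 12 are genes of metabolism and mitochondria. DLD, the dihydrolipoamide dehydrogenase shared by mitochondrial dehydrogenase complexes, averaged 50 ± 18.5 and 79.8 ± 10.6 (log2 0.74 ± 0.23), and 0.47 on the arrays numbered 2 to 4. MRPS10, a protein of the mitochondrial ribosome, averaged 49 ± 13.4 and 79 ± 13.4 (0.72 ± 0.22), with no overlap. Its small spherical level, 73.8 ± 16.5, was close to the filamentous one. GPX6, a glutathione peroxidase, averaged 79.1 ± 23.8 and 141 ± 26.6 (0.87 ± 0.33), also without overlap. ENO1, the glycolytic enolase, averaged 61.1 ± 13.1 and 82.4 ± 8.61 (0.45 ± 0.18), and 3 of its 4 filamentous arrays lay above every large spherical array.

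Filamentous replicate 1 was the highest of the 4 filamentous arrays for 8 of these 12 genes. Large spherical replicate 1 was likewise the highest of its group for 7 of the 12. Without filamentous replicate 1 the 12 differences ran from 0.46 to 1.84 on the log2 scale, and on the arrays numbered 2 to 4 from 0.47 to 2.31, so each kept its direction. For 8 of the 12 the small spherical mean, too, was above the large spherical mean. The genes were picked for a large spherical level below the filamentous one, so this count supports nothing.

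**Figure D2:**
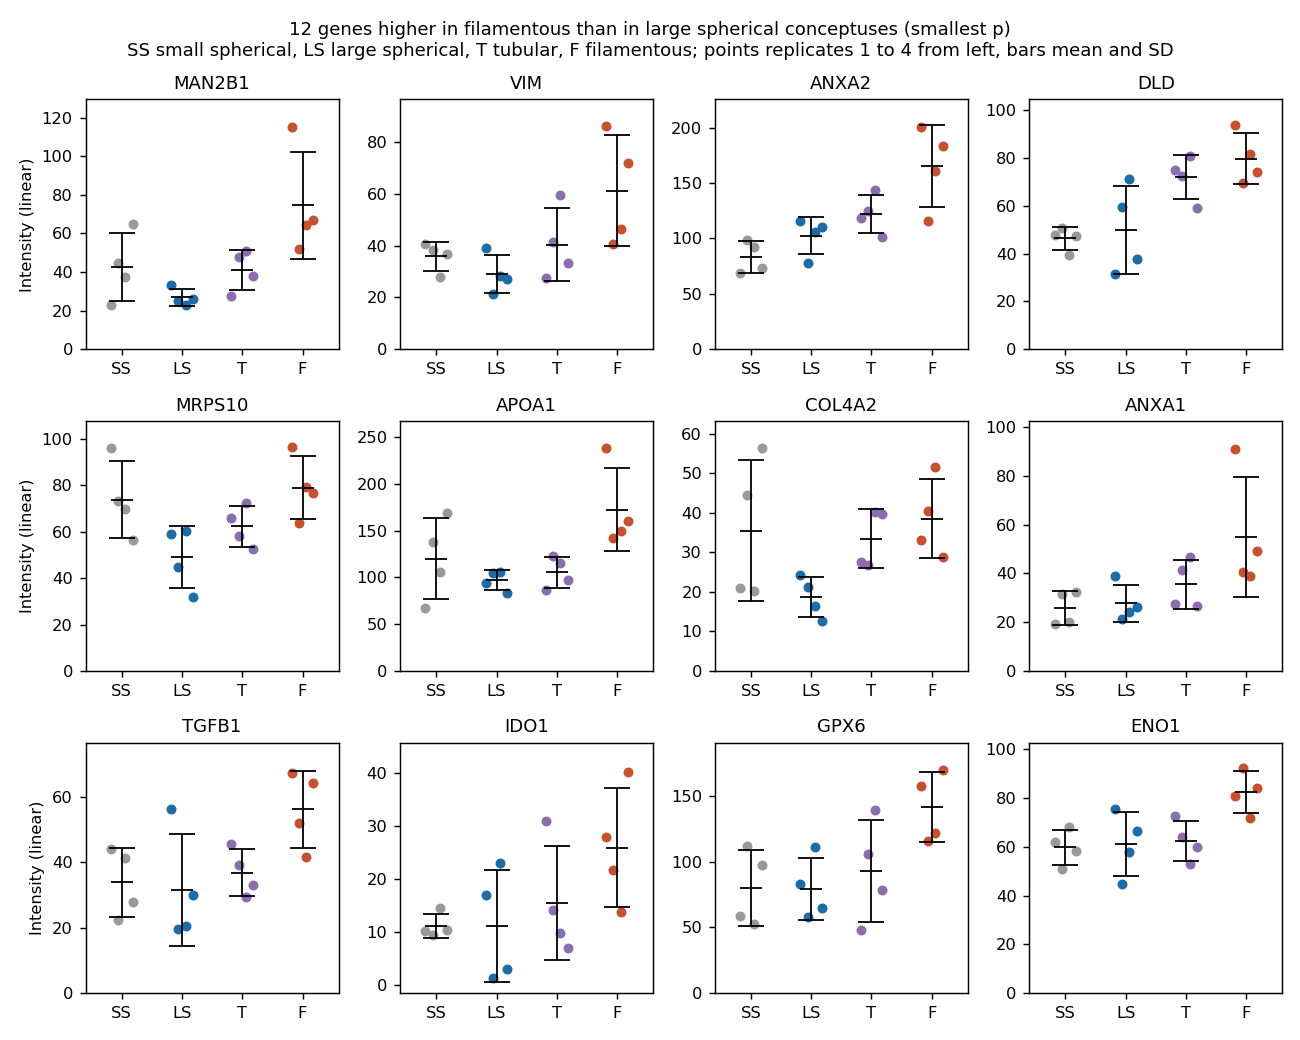
Linear intensity (vertical axis) of the 12 higher genes with the smallest p in the 4 stages; points are replicates 1 to 4 from left to right and bars are mean and SD (n = 4). For MAN2B1, VIM, ANXA2, MRPS10, APOA1, COL4A2, ANXA1 and GPX6 every filamentous point lies above every large spherical point.

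Among genes lower in filamentous conceptuses, those with the smallest p were YWHAH, NAP1L1, LSM14A, CTSC, FUCA1, TF, ATP6V1A, QDPR, TALDO1, B3GAT3, NSFL1C and AMBP. The groups did not overlap for 2 of the 12, YWHAH and NSFL1C, against 0.986% of all probes, and this count, too, follows from picking genes for small p.

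YWHAH, a 14-3-3 adaptor that binds phosphorylated proteins, read 105, 120, 162 and 143 in large spherical conceptuses and 80.1, 89.7, 104 and 84.3 in filamentous ones. The highest filamentous array lay just below the lowest large spherical one. The log2 difference was -0.55 ± 0.19 (1.46-fold lower, 1.11 to 1.94, adjusted p = 0.722), and small spherical conceptuses read 149 ± 27.3. NSFL1C, a cofactor of the p97 ATPase in membrane fusion, read 77.3, 74.7, 73.8 and 93.3 against 64.7, 52.1, 59.1 and 69.2 (log2 -0.38 ± 0.16, adjusted p = 0.722).

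CTSC, a lysosomal protease that activates other proteases, read 69.9, 84.7, 114 and 89.5 in large spherical and 34.7, 72.3, 44 and 74.2 in filamentous conceptuses (log2 -0.72 ± 0.26, adjusted p = 0.722). The groups overlapped, with 2 filamentous arrays below the large spherical range and 2 inside it. Its level was 40.7 ± 6.56 in small spherical and 74.2 ± 20.1 in tubular conceptuses, so the large spherical mean was the highest of the 4 stages. FUCA1, a lysosomal fucosidase, averaged 74.1 ± 29.1 and 43.4 ± 5.66 (log2 -0.69 ± 0.27), and -0.39 without the arrays numbered 1. ATP6V1A, a subunit of the proton pump that acidifies lysosomes, averaged 163 ± 42.8 and 107 ± 33.5 (log2 -0.62 ± 0.25).

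NAP1L1, a histone chaperone, read 17, 28, 25.7 and 28.1 against 27.9, 11.7, 7.51 and 8.67, with filamentous replicate 1 inside the large spherical range and the other 3 below it. Its log2 difference of -1.0 ± 0.36 (adjusted p = 0.722) became -1.58 (adjusted p = 0.0726) once the arrays numbered 1 were dropped, and -0.59 with an offset before the logarithm. TF, transferrin, the iron carrier, read 27.9, 41.4, 13.7 and 14.7 against 3.94, 14.6, 16.3 and 11.2 (log2 -1.12 ± 0.44, adjusted p = 0.722). For TF the difference was -0.66 without filamentous replicate 1, whose value was the lowest, -0.55 without the arrays numbered 1 and -0.64 with the offset. AMBP, a plasma protein precursor, was near the bottom of the scale at 6, 3.33, 7.01 and 12.8 against 0.517, 0.12, 3.73 and 11.2. Its log2 difference of -2.36 ± 1.03 was -0.35 with an offset and -1.22 without filamentous replicate 2, so no size can be given for it.

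The other 4 lower genes had broader roles and overlapping groups. LSM14A, an RNA-binding protein of P-bodies, averaged 30.3 ± 8.09 and 19.1 ± 5.18 (log2 -0.66 ± 0.24). QDPR, which regenerates tetrahydrobiopterin, averaged 167 ± 39.6 and 111 ± 36.9 (log2 -0.62 ± 0.26). TALDO1, a transaldolase of the pentose phosphate pathway, averaged 225 ± 69.8 and 155 ± 35.1 (log2 -0.52 ± 0.21). B3GAT3, a glucuronyltransferase of proteoglycan synthesis, averaged 25.5 ± 8.17 and 14.7 ± 3.08 (log2 -0.76 ± 0.32). Each of these had 2 or 3 filamentous arrays below the lowest large spherical array.

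**Figure D3:**
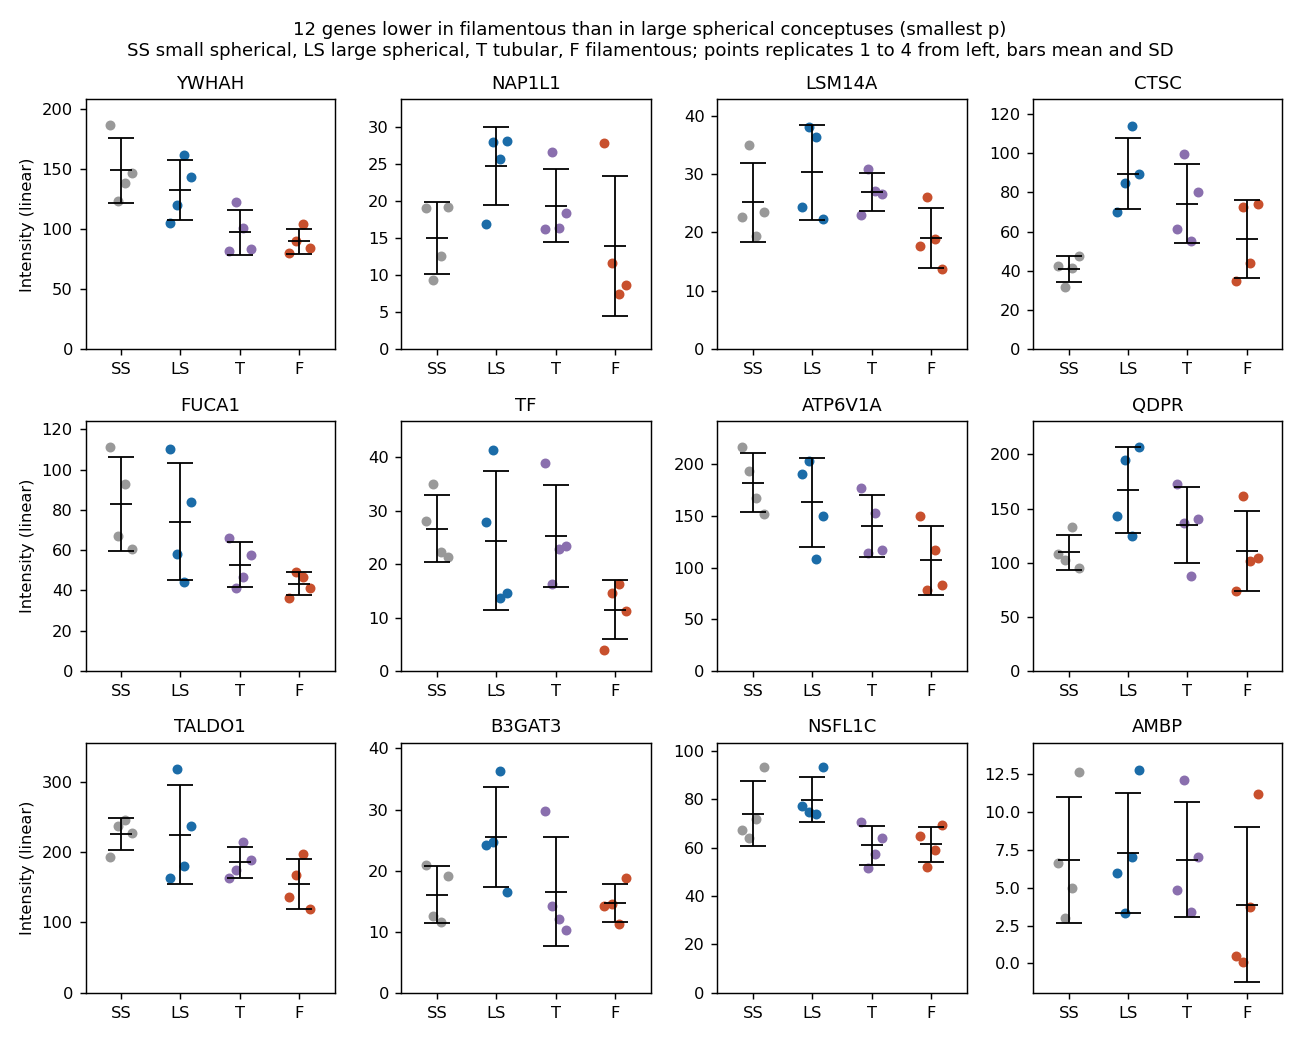
Linear intensity (vertical axis) of the 12 lower genes with the smallest p in the 4 stages; points are replicates 1 to 4 from left to right and bars are mean and SD (n = 4). Only YWHAH and NSFL1C show filamentous points that are all below the large spherical points, and AMBP lies close to 0.

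For genes of oestrogen synthesis, the groups overlapped, and every interval leaves room for a difference in either direction. STAR, which brings cholesterol into mitochondria, read 84.6, 131, 145 and 178 in large spherical conceptuses and 113, 168, 193 and 140 in filamentous ones. The ranges overlapped, and the ratio of filamentous to large spherical was 1.16 (95% interval 0.822 to 1.63, adjusted p = 0.942), or 0.21 on the log2 scale and 0.14 on the arrays numbered 2 to 4. CYP11A1, which cleaves the cholesterol side chain, read 118, 84.7, 49.7 and 73.2 against 60.4, 104, 110 and 93.2, a ratio of 1.15 (0.728 to 1.82, adjusted p = 0.98). On the log2 scale the CYP11A1 difference was 0.20 ± 0.31, and 0.59 ± 0.33 on the arrays numbered 2 to 4 (adjusted p = 0.669). STAR averaged 40 ± 7.89 in small spherical and 160 ± 19.4 in tubular conceptuses, and CYP11A1 40.9 ± 12.9 and 87.5 ± 23.8.

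CYP19A1, the aromatase, averaged 223 ± 20.7 and 215 ± 35.4, with a log2 difference of -0.06 (interval -0.46 to 0.33, adjusted p = 0.983). The signs of CYP19A1 and of KRT18 turned with cyclic loess normalization and on the arrays numbered 2 to 4, and that of CYP19A1 with quantile normalization too, so neither has a direction here. CYP17A1, which leads from progestins to androgens, was dim, at 26.1, 8.02, 7.01 and 1.24 against 5.65, 17.5, 36.5 and 21.3. The first array of each group stood against the other 3, and its log2 difference of 1.35 ± 0.76 (adjusted p = 0.722) was 2.53 without the arrays numbered 1. It was 0.55 without large spherical replicate 4 and 0.58 with an offset. Small spherical and tubular levels were 173 ± 21.4 and 199 ± 45.1 for CYP19A1, and 4.2 ± 2 and 16.3 ± 7.24 for CYP17A1. In this list of 4 measured genes, 0 passed, 3 were positive and the median was 0.21, beside -0.01 over all probes. That median ran from 0.096 to 0.37 over the 28 alternatives and was 0.37 on the arrays numbered 2 to 4.

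The cytochrome b5 and HSD17B genes were mostly on the lower side, but every interval leaves room for a difference in either direction. Of these 4, 0 passed, 3 were negative and the median was -0.29. CYB5A, a partner of CYP17A1, averaged 162 ± 16.3 and 134 ± 15.7 (log2 -0.27 ± 0.18). HSD17B12, a fatty acid and steroid reductase, averaged 86.4 ± 9.2 and 69.7 ± 8.42 (-0.31 ± 0.17), and HSD17B4, a peroxisomal enzyme, 115 ± 17 and 92.7 ± 25.6 (-0.34 ± 0.27). The HSD17B4 difference was -0.19 on the arrays numbered 2 to 4 and -0.18 without filamentous replicate 1. CYB5B alone was positive, at 0.19. Whether this list differs from the STAR and CYP list was not tested.

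Of the 6 measured genes of steroid reception and prostaglandins, 0 passed, 2 were positive and the median was -0.05 (-0.12 to -0.011 over the alternatives). PTGES, a prostaglandin E synthase, read 116, 118, 119 and 113 in large spherical conceptuses but 59.5, 145, 94.4 and 156 in filamentous ones. The large spherical arrays were nearly equal while the filamentous arrays lay on both sides of them. Its SD was 2.95 in the one group and 45 in the other. ESR2, an oestrogen receptor, was dim, with filamentous replicate 1 the lowest of its group: 22.4, 23, 31 and 47.3 against 14.2, 44.9, 54.1 and 38.9 (log2 0.21 ± 0.57, 0.49 on the arrays numbered 2 to 4, and a sign that turned in 2 alternatives).

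TGFB3, another transforming growth factor, read 26.1, 54.7, 52.4 and 55 in large spherical and 14.2, 86.8, 99.5 and 86.9 in filamentous conceptuses. In each group replicate 1 was the lowest, and the other 3 filamentous arrays exceeded all large spherical ones. Small spherical conceptuses averaged 5.86 ± 5.86 and tubular ones 65.4 ± 10.3. The log2 difference was 0.34 ± 0.62 (interval -0.98 to 1.67, adjusted p = 0.983), 1.01 without filamentous replicate 1 and 0.75 without the arrays numbered 1. It was 0.081 without large spherical replicate 1 and 0.076 to 0.14 without filamentous replicate 2, 3 or 4, so single arrays set its size.

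Of 11 measured growth factor and TGF beta genes, 0 passed, 6 were positive and the median was 0.06, a sign that turned in 4 of 28 alternatives. SMAD4, the shared mediator of TGF beta signals, averaged 145 ± 15.4 and 121 ± 16.4 (log2 -0.27 ± 0.15). IGF2R, which clears insulin-like growth factor II, was dim at 25.4 ± 11.7 and 14 ± 13.3 (log2 -1.12 ± 0.62). Its filamentous mean rested on replicate 4 at 33.9.

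**Figure D4:**
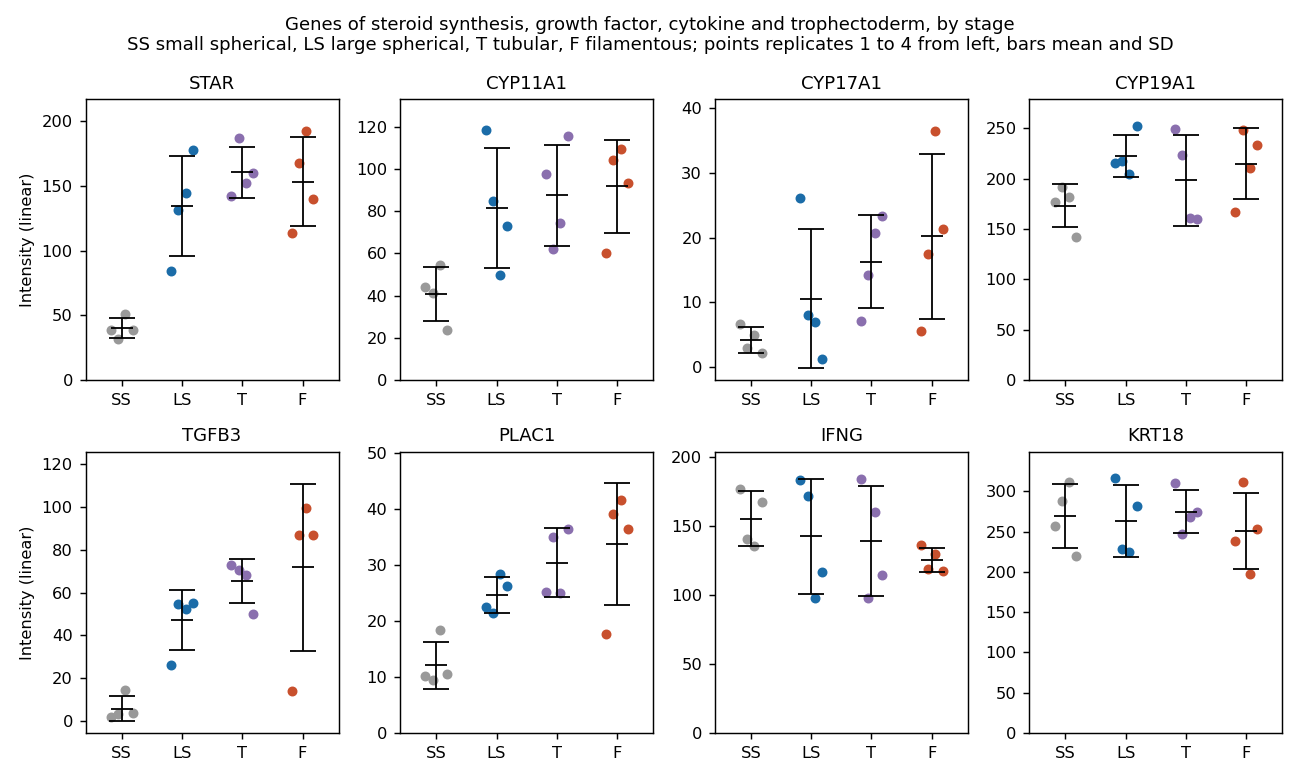
Linear intensity (vertical axis) of STAR, CYP11A1, CYP17A1, CYP19A1, TGFB3, PLAC1, IFNG and KRT18 in the 4 stages; points are replicates 1 to 4 from left to right and bars are mean and SD (n = 4). Large spherical and filamentous points overlap in every panel, and filamentous replicate 1 is the lowest filamentous point for STAR, CYP11A1, CYP17A1, CYP19A1, TGFB3 and PLAC1.

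The labelled tissue was checked against its markers. KRT18, a keratin of simple epithelia such as trophectoderm, read 225 to 317 on the large spherical and 198 to 312 on the filamentous arrays. Summed over the 9 measured trophectoderm genes, intensity was 803 to 1092 and 729 to 1015, so the ranges overlapped. Of the 9, 0 passed, 3 were positive and the median was -0.07, with a sign that turned in 2 of 28 alternatives. PLAC1, a trophoblast gene, read 22.4, 21.4, 28.4 and 26.2 against 17.6, 39.1, 41.5 and 36.4. It averaged 12.1 ± 4.2 in small spherical and 30.4 ± 6.14 in tubular conceptuses. For PLAC1, too, filamentous replicate 1 lay below every large spherical array while the other 3 lay above (log2 0.39 ± 0.28, adjusted p = 0.84, and 0.63 without the arrays numbered 1). GCM1, a trophoblast transcription factor, was close to the bottom of the scale, at 3.33 to 26.2 and 0.12 to 18.8. Its log2 difference was -2.27 ± 1.20, and -3.55 to -0.34 over the alternatives.

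Markers of other cells stayed low or overlapped. CD3E, a T cell gene and the single measured marker of maternal blood, read 1.83 to 4.34 and 1.71 to 3.63. The 2 measured markers of maternal endometrium, PGR and ACP5, summed to 17.5 to 32.7 and 9.59 to 34.8. PGR, the progesterone receptor, read 0.517 to 11.2 on the filamentous arrays, and ACP5, the uterine iron protein uteroferrin, 9.07 to 31.9. Of the 5 epiblast, mesoderm and vascular genes 0 passed and 4 were positive, with a median of 0.40, and their sums were 92.5 to 111 and 90 to 128. The median ran from 0.043 to 0.52 over the alternatives; the lowest value is that of PECAM1, an endothelial adhesion protein and the one member brighter than the dimmest 25% of probes. KDR, a vascular growth factor receptor of mesoderm, read 20.6, 21.4, 19 and 22.3 against 21, 29, 39 and 23.8 (log2 0.40 ± 0.24, adjusted p = 0.728). For KDR, 3 of 4 filamentous arrays lay above the large spherical range. T, the mesoderm factor brachyury, averaged 10.2 ± 12.4 and 10.8 ± 2.81, and FLT1, another vascular receptor, 3.5 ± 2.99 and 6.82 ± 5.21, both dim.

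Secreted products and regulators of yolk sac endoderm differed in both directions. Of 10 measured genes 0 passed, 6 were positive and 4 negative, with a median of 0.16 (0.067 to 0.33 over the alternatives). The non-overlapping members were APOA1 and APOA2, both higher, where 2.86% of all probes were higher without overlap. APOA1 had been picked above for small p. Summed over the 10 measured genes, intensity was 621 to 844 in large spherical and 777 to 964 in filamentous conceptuses. APOA1, APOA2 (0.46) and FN1, fibronectin (0.42 ± 0.20, and 0.20 on the arrays numbered 2 to 4), were on the higher side. So was RBP4, the retinol carrier, at 0.46 ± 0.34 on the brightest of its 3 probes, with overlapping groups. On the lower side were TF and AFP, alpha-fetoprotein (-0.29), with CTSV (-0.28) and SERPINA1 (-0.13). APOE (0.25) and AHSG (0.07) made up the rest.

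Of 6 annexins and calcium-binding genes, 0 passed and 5 were positive, with a median of 0.48 (0.32 to 0.61 over the alternatives). ANXA1, ANXA2 and ANXA4 were higher without overlap, as were 2.86% of all probes, and ANXA1 and ANXA2 had been picked above for small p. ANXA4 read 26.1, 18, 17.7 and 22.3 against 39, 26.1, 31.4 and 33.9, where the lowest filamentous and the highest large spherical values both round to 26.1 (log2 0.64 ± 0.37, adjusted p = 0.722). CALM2, a calmodulin, was at 0.32 and ANXA5 at 0.08. S100A1, a calcium sensor, was the exception at -0.75.

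Of 5 genes of glucose transport and glycolysis, 0 passed and 4 were positive, with a median of 0.27. GAPDH read 84.6, 71.4, 79.1 and 81.8 against 86, 98.3, 86.9 and 113, without overlap (log2 0.27 ± 0.14, adjusted p = 0.722). Its tubular level, 68.5 ± 3.37, lay below both, so the stages were not in order. LDHB, a lactate dehydrogenase, averaged 130 ± 13.8 and 176 ± 47.7, and SLC2A1 and SLC2A3, glucose transporters, differed by 0.16 and -0.04.

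Among 8 genes of fatty acid and lipid handling, 0 passed and 6 were negative, with a median of -0.22 (-0.23 to -0.11 over the alternatives). ACSL3, an acyl-CoA synthetase, had intensities of 76.3, 98, 134 and 114 against 33, 92.6, 61.7 and 90.6 (log2 -0.69 ± 0.35, adjusted p = 0.722), and -0.37 without filamentous replicate 1. ACSL1, another acyl-CoA synthetase, differed by -0.20 ± 0.21 on the log2 scale. FDFT1, squalene synthase of the cholesterol pathway, was on the higher side, at 144 ± 23.3 and 180 ± 28.5. Of 8 antioxidant and mitophagy genes, 0 passed and 5 were positive, with a median of 0.13 (0.040 to 0.21 over the alternatives). SOD1, a superoxide dismutase, averaged 177 ± 26.7 and 138 ± 22.5 (log2 -0.36 ± 0.21), opposite to GPX6. GSTA1 differed by -0.29 ± 0.24.

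Of 13 cytoskeletal genes 0 passed, and their median of 0.0022 turned sign in 9 of 28 alternatives. VIM, TMSB10, a thymosin that binds actin, and TAGLN2, a transgelin, were higher without overlap between the groups, against 2.86% of all probes. VIM had been picked above for small p. TMSB10 read 93.7, 79.7, 87.1 and 76.1 against 112, 124, 125 and 105 (log2 0.47 ± 0.20, adjusted p = 0.722), and its tubular mean of 119 ± 29.6 was as high as its filamentous mean of 116 ± 9.9. TAGLN2 read 40.7, 51.4, 57.8 and 51.1 against 61.2, 69.4, 71.7 and 89.4 (log2 0.54 ± 0.26, adjusted p = 0.722).

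Matrix genes were split. Of 21 genes of matrix, integrins and proteases 0 passed, 10 were positive and 11 negative, with a median of -0.04 that turned sign in 8 of 28 alternatives. Beside COL4A2, MMP2, a gelatinase that degrades collagen IV, averaged 79.7 ± 14.4 and 110 ± 14.7 (log2 0.48 ± 0.20, adjusted p = 0.722). CTSC was the lowest member.

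The cytokine list and the 6 larger lists of general cell functions had medians near that of all probes, between -0.14 and 0.17 in each of the 28 alternatives. Of 16 interferon and interleukin genes 0 passed and 8 were positive (median 0.04, sign turned in 3 of 28 alternatives). Within it IL18, a cytokine, averaged 37.1 ± 12 and 58.5 ± 19 (log2 0.66 ± 0.31). IL11RA, with the largest positive difference of the list (log2 0.77 ± 0.59), was its 1 member without overlap, where 2.86% of all probes were higher without overlap. IFNG, the interferon gamma of the elongating pig conceptus, averaged 142 ± 41.5 and 125 ± 8.92 on its brighter probe (log2 -0.14, interval -0.63 to 0.35, adjusted p = 0.983, and -0.038 on the arrays numbered 2 to 4). A second IFNG probe differed by 0.07. IL12A was dim, at 10.6 ± 3.8 and 6.84 ± 4.13 (log2 -0.78 ± 0.46). IL4 was dim too, at 7.03 ± 5.01 and 5.13 ± 8.27 (log2 -1.95 ± 1.06, and -3.15 to -0.25 over the alternatives).

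Of 23 cytosolic ribosomal proteins, 14 were positive (median 0.06), and of 12 translation factors, 7 (median 0.08), with 0 passing in each. RPS2 averaged 223 ± 23.5 and 303 ± 54.2 (log2 0.43 ± 0.17), RPL23 301 ± 62.5 and 213 ± 37.3 (log2 -0.49 ± 0.22) and EIF4A3, an RNA helicase, 34 ± 18.2 and 51.8 ± 6.74. EIF3K and EIF4A1, also translation factors, differed by 0.52 ± 0.25 and -0.34 ± 0.24 on the log2 scale. RPL36AL read 394 on filamentous replicate 1, the maximum of that array, where values can be saturated. Of 17 genes of mitochondrial respiration 9 were positive (median 0.05, sign turned in 3 of 28 alternatives), and 0 passed. After DLD, its members with the smallest p were IDH3A and MDH2, enzymes of the citric acid cycle, at -0.23 ± 0.15 and 0.22 ± 0.15. IDH3A was at -0.12 on the arrays numbered 2 to 4, and MDH2 at 0.094 without filamentous replicate 3.

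On the lower side, 22 of 31 genes of chaperones, proteasome and ubiquitin were negative, although the median was only -0.08 and 0 passed. HSP90AA1 averaged 79.4 ± 20.8 and 57.7 ± 15.8 (log2 -0.46, and -0.78 on the arrays numbered 2 to 4) and PSMA3, a proteasome subunit, 129 ± 22 and 106 ± 7.84. USP28, also among the members with the smallest p, was positive (log2 0.30 ± 0.21). The 1 member without overlap, CCT4, was higher on its brightest probe (log2 0.21 ± 0.18), as were 2.86% of all probes without overlap. Its lowest filamentous value, 168.7, was just above its highest large spherical value, 168.04. Of 18 cell cycle and chromatin genes, 12 were negative (median -0.07) and 0 passed. HMGB1, a chromatin protein, read 182, 195, 151 and 159 against 124, 130, 141 and 107 on its brighter probe, without overlap (log2 -0.45 ± 0.21, adjusted p = 0.722), while its dimmer probe differed by 0.53 in the other direction. ARID1A, a chromatin remodelling subunit, was the highest member of that list, at log2 0.51 ± 0.29, and 0.20 on the arrays numbered 2 to 4. CENPF differed by -0.26 ± 0.17. Of 25 splicing and RNA-binding genes 15 were negative (median -0.05, sign turned in 1 of 28 alternatives), and 0 passed. DDX47, an RNA helicase, and SRSF1, a splicing factor, differed by -0.46 ± 0.25 and -0.30 ± 0.18 on the log2 scale. Over all probes 533 of 1014 were negative.

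**Figure D5:**
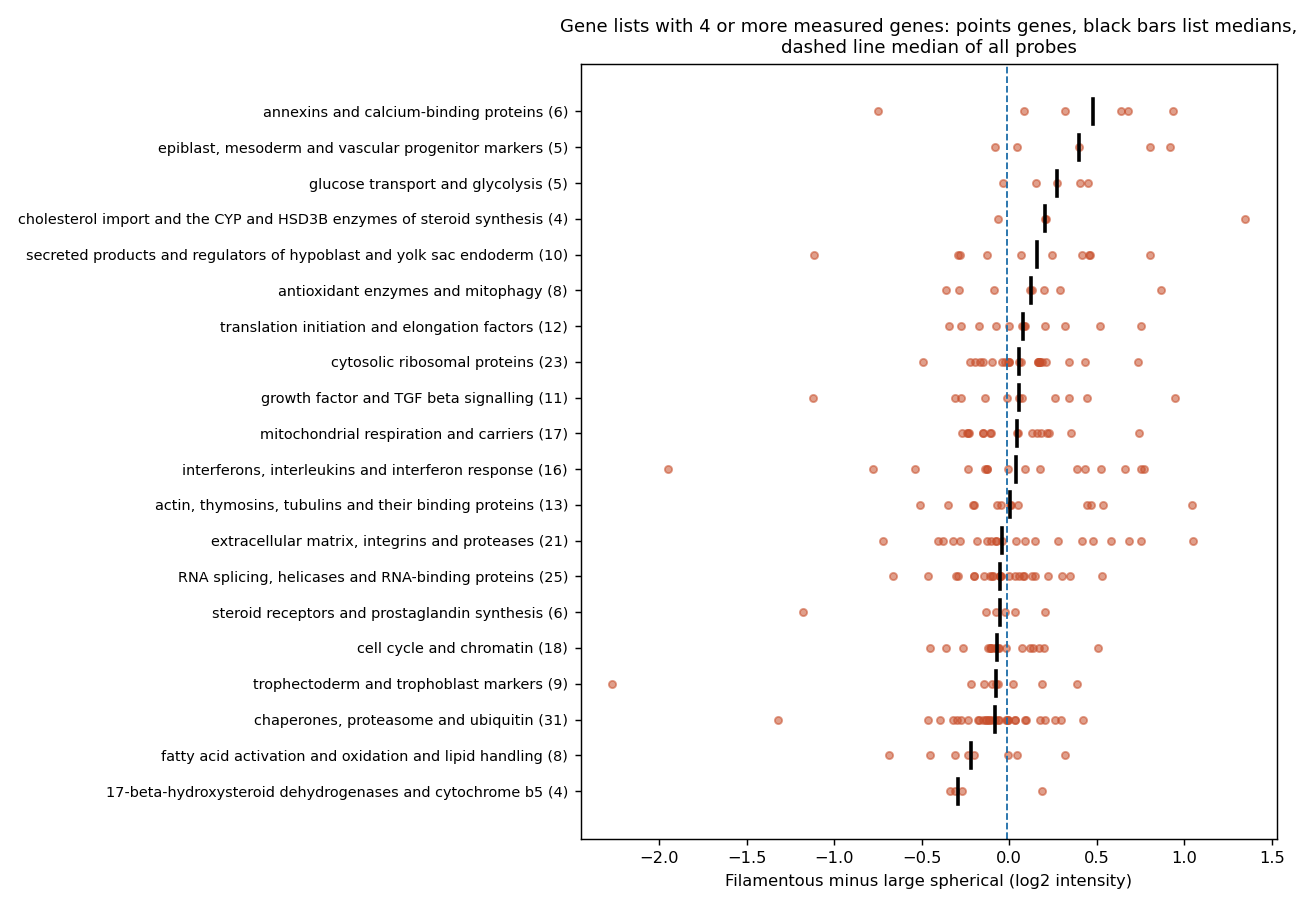
Filamentous minus large spherical difference (horizontal axis, log2 intensity) of each measured gene in the 20 gene lists with at least 4 genes; black bars are list medians, the dashed line is the median of all probes (-0.01) and the number of genes is in parentheses. Medians run from -0.29 for HSD17B and cytochrome b5 genes to 0.48 for annexins and calcium-binding genes.

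Probes without a gene name are given by number. Probe 30 read 42.2 ± 18.6 and 79.5 ± 18.5 (log2 0.99 ± 0.31), probe 291 80.1 ± 21.9 and 134 ± 27 (0.77 ± 0.24) and probe 569 63.4 ± 17.7 and 120 ± 23.1 (0.95 ± 0.31). The lower ones were probe 172, at 71.8 ± 18.4 and 44.4 ± 8.29 (-0.67 ± 0.21), probe 955, at 294 ± 40.6 and 224 ± 13.1, and probe 841, at 110 ± 24.6 and 66.2 ± 17.6. Of these 6, the groups did not overlap for probes 569 and 955, and the adjusted p was 0.61 or more for each.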

How the data were processed

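The deposited table holds linear intensity values for 1015 probes on 16 arrays; 0 columns were left out. Per the labels, RNA was extracted, amplified, radiolabelled and hybridised to cDNA membranes. Scanning, background and normalization are not given in the sources used here. Values were taken to log2 with no further normalization. Probe 357, equal on all arrays, was dropped, leaving 1014. The platform annotation gave 676 probes 1 symbol, 15 several and 324 none, and 668 of the symbols matched RefSeq by gene identifier. Where a gene had several probes, the brightest was used.

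The limma 3.58.1 model (R 4.3.3) estimated each stage's mean from its own 4 arrays and the spread from the 16 arrays together. Tests were two-sided, with Benjamini-Hochberg over 1014 probes and a threshold of 0.05. The fitting code was separately tested on simulated data. Means and SDs are of linear intensities, while differences, SEs, folds and 95% intervals come from the log2 fit and compare geometric means. Named are the 12 higher and 12 lower genes with the smallest p, up to 3 genes with the smallest p from each of 22 lists, 11 genes listed by name (IL1B had no probe of its own), and the 3 unnamed probes with the smallest p in each direction; other members printed with a list, and second probes, were chosen after their values were seen. The groups, lists and genes were chosen with earlier results of these data known. Plots used matplotlib 3.10.9.

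Same-numbered arrays deviated together at 0.41 for number 1 but at 0.056 to 0.11 for numbers 2 to 4, so numbers were not treated as pairs. Alternatives were 3 normalizations, a filter on the dimmest 25%, an offset of 10, a block, only 8 arrays, array weights, a robust variance trend, the arrays numbered 2 to 4, a term for the arrays numbered 1, removal of a trend along probe number, and each array left out.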

Additional observations from a re-analysis of the deposited data

Results flagged for a closer look

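In 156 groups of 4 arrays (78 named genes in large spherical and filamentous conceptuses), 9 held an array far from the other 3 by Dixon's 95% criterion on the gap over the range; chance flags about 1 in 20 groups.

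TGFB3 was low on replicate 1 of both groups: large spherical replicate 1 read 26.1 against 52.4 to 55 on the others, and filamentous replicate 1 read 14.2 against 86.8 to 99.5. Filamentous replicate 1 was high for RPL36AL, at 394 against 173 to 195, and for ARID1A, a chromatin remodelling subunit, at 26.2 against 11.2 to 11.7. Filamentous replicate 4 was high for 3 dim genes: GCM1 at 18.8 against 0.12 to 2.52, IL4 at 17.5 against 0.12 to 1.71, and IGF2R at 33.9 against 5.9 to 8.76. In large spherical conceptuses, replicate 4 read 26.2 for GCM1 against 3.33 to 4.34, and replicate 2 read 423 for DDX47, an RNA helicase, against 223 to 249.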

How the results depend on the processing

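The count of 0 probes past the threshold held in all 28 alternatives, with a smallest adjusted p of 0.0515 (only the 8 arrays of both stages) to 0.999 (without large spherical replicate 2) and 44 to 93 probes at an unadjusted p below 0.05. With the replicate number as a block the count was 0 too, with 93 probes at an unadjusted p below 0.05. None of the 24 leading genes turned sign in any alternative. Among 78 named genes, 70 never did. The other 8 had small differences. On the arrays numbered 2 to 4, PTGES was at 0.14, KRT18 at 0.037 and CYP19A1 at 0.038. With cyclic loess, KRT18 was at 0.0125, CYP19A1 at 0.0175 and ACP5 at -0.033. With quantile normalization, CYP19A1 was at 0.00051 and ACP5 at -0.10. With the trend along probe number removed, ESR2 was at -0.074, CYP19A1 at 0.00031 and ACP5 at -0.049. Leaving out single arrays gave CYP11A1 -0.011 to 0.41, IFNG -0.30 to 0.00086, PTGES -0.32 to 0.15, KRT18 -0.19 to 0.033, ESR2 -0.017 to 0.63, CYP19A1 -0.14 to 0.051, ACP5 -0.25 to 0.36 and CD3E -0.22 to 0.19. The cause was not tested. Dim probes have no measured floor, and no alternative moved the median of all probes by more than 0.018.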
